A study of Bos taurus with 8 samples.

Results

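The mineralization genes examined here were 10 genes of the cow that act in the making or the holding back of calcium phosphate mineral. They were chosen by name from the 24596 genes of the RNA-Seq count table, and all 10 were found there. Of these, *ALPL*, *PHOSPHO1*, *ENPP1*, *ANKH* and *SLC20A1* handle phosphate or pyrophosphate, *SPP1*, *IBSP* and *DMP1* encode acidic phosphoproteins of the SIBLING family, and *MGP* and *BGLAP* encode proteins that carry gamma-carboxyglutamate (Gla). The cells were wild-type chondrocytes of the superficial zone (SZCs) and of the deep zone (DZCs) from knee cartilage of calves 1 to 2 weeks old, kept in serum-containing medium for 3 days, with 2 RNA-Seq libraries from each zone and no other treatment. Per the study's methods, the zones were thin slices cut from the top and from the base of the same cartilage cores, with the cartilage between them thrown away, and the slices of a joint were pooled by zone. The 2 libraries of a zone were biological duplicates.

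Mineral forms where inorganic phosphate is plentiful and pyrophosphate, which blocks crystal growth, is scarce. In the growth plate, hypertrophic chondrocytes release matrix vesicles whose phosphatases raise phosphate and remove pyrophosphate, and SIBLING proteins bind the crystals and the cells around them. Articular cartilage above the calcified layer stays free of mineral, and pyrophosphate and Gla proteins are known for keeping it so.

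Library totals lay between 19918970 and 21890549 counts, and each gene's counts were scaled to a common library total as CPM. The limit of detection was set at 3 counts, or 0.129 to 0.187 CPM. Totals were adjusted by the trimmed mean of *M* values (TMM) of edgeR, because *COL2A1* alone took between 6.31% and 24.5% of the counts of a library. All 8 chondrocyte markers examined were detected in every library, and all 5 superficial zone markers were higher in SZCs in edgeR's exact test. The study named these 5 genes as higher in SZCs from the same RNA-Seq data. Their outcome was thus known beforehand and is no separate check of the zones. The DZC duplicates were less alike than the SZC duplicates, the chi-square of their counts divided by its degrees of freedom being 302.5 for DZCs and 61.9 for SZCs. Levels were not divided by transcript length, so they are compared between libraries and not between genes.

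None of the 7 mineralization genes with enough counts for a test passed a false discovery rate (FDR) of 0.05 between SZCs and DZCs in edgeR's exact test, against 2.93% of the 12857 genes tested. At an unadjusted p-value under 0.05 there were 3, *ALPL*, *ANKH* and *ENPP1*, beside 1169 of the 12857 genes tested. DESeq2 likewise called 0 and had the same 3 genes at an unadjusted p-value under 0.05, beside 1167 of all genes. The quasi-likelihood test of edgeR called 0 and had *ENPP1* alone, beside 1126 of all genes. The median log2 fold change of SZCs over DZCs was -0.06 for the 7 genes and -0.04 for all genes tested. *IBSP*, *BGLAP* and *DMP1* had too few counts in too many libraries to be tested. The larger differences lay within the deep zone. Of the 8 mineralization genes with at least 20 counts in the higher DZC library, 3 differed by more than 4-fold between the DZC libraries, where 7.67% of all such genes did. Those were *ALPL*, *SPP1* and *IBSP*, and each was higher in DZC replicate 2. Between the SZC libraries 0 of 6 such genes differed by more than 4-fold, against 1.65% of all genes.

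**Figure D1:**
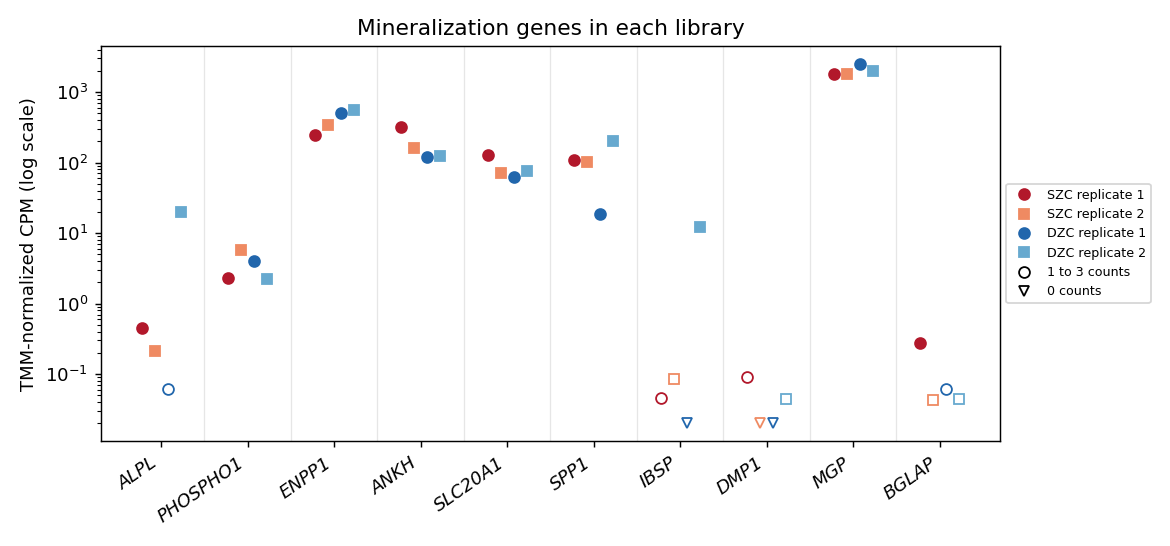
TMM-normalized CPM (log scale) of the 10 mineralization genes in each of the 4 libraries. Open circles and squares mark 1 to 3 counts and triangles mark 0 counts, placed at the foot of the axis. *ALPL* and *IBSP* stand at 19.95 and 12.0 CPM in DZC replicate 2 and below 0.5 CPM in the other libraries. *MGP*, *ENPP1*, *ANKH* and *SLC20A1* are at 63.3 CPM or more in all 4.

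*ALPL* (ENSBTAG00000008951) encodes tissue-nonspecific alkaline phosphatase, which splits pyrophosphate and so both removes an inhibitor and yields phosphate. SZC replicates 1 and 2 held 10 and 5 counts, and DZC replicates 1 and 2 held 1 and 445. These counts correspond to 0.454, 0.215, 0.0622 and 19.95 CPM. DZC replicate 2 was thus the only library with a substantial level, DZC replicate 1 was the lowest of the 4, and the ranges of the zones overlapped. Between the DZC libraries the ratio was 321-fold (95% exact counting interval 57.3 to 12690, which covers counting error only). The zone difference was a log2 fold change of -4.88 (SE 1.67 from the model, 95% interval -8.14 to -1.61), and the edgeR exact test gave an FDR of 0.301. Without DZC replicate 1 it was -5.88, and without DZC replicate 2 it turned to 2.33. The latter value sets 10 and 5 counts against 1 count, which is under the limit of detection.

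*PHOSPHO1* (ENSBTAG00000000033) encodes a phosphatase of matrix vesicles that frees phosphate from phosphocholine and phosphoethanolamine. It did not share the pattern of *ALPL*. Its counts were 51 and 134 in SZC replicates 1 and 2 and 65 and 49 in DZC replicates 1 and 2, or 2.32, 5.77, 4.04 and 2.20 CPM. DZC replicate 2, the library highest in *ALPL*, was the lowest in *PHOSPHO1*, and the zones overlapped. The log2 fold change was 0.38 (SE 0.72, 95% interval -1.04 to 1.80), and the FDR was 1 (edgeR exact test). That interval leaves room for a difference of more than 3-fold in favour of SZCs.

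*ENPP1* (ENSBTAG00000021830) encodes the ectoenzyme that makes pyrophosphate from extracellular nucleotides, which places it opposite *ALPL*. Its level was 249 and 342 CPM in SZC replicates 1 and 2 and 512 and 563 CPM in DZC replicates 1 and 2. Both DZC libraries lay above both SZC libraries on the TMM scale, whereas with libraries scaled by their totals SZC replicate 2, at 389 CPM, lay above DZC replicate 1, at 376 CPM. The TMM-normalized means were 295 ± 65.9 CPM in SZCs and 537 ± 35.5 CPM in DZCs (SD, n = 2 each), a 1.82-fold higher level in DZCs. The log2 fold change was -0.86 (SE 0.38, 95% interval -1.61 to -0.12), and the FDR was 0.367 in the exact test of edgeR. It kept its sign with each library left out, between -1.11 and -0.66.

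*ANKH* (ENSBTAG00000013391) encodes a membrane protein needed for the release of pyrophosphate and ATP from the cell. In SZC replicate 1 it was at 319 CPM, in SZC replicate 2 at 161 CPM, and in DZC replicates 1 and 2 at 120 and 124 CPM. Both SZC libraries lay above both DZC libraries, but SZC replicate 2 was closer to the DZC libraries than to its own duplicate. The means were 240 ± 112 CPM in SZCs and 122 ± 2.61 CPM in DZCs (SD, n = 2 each). The log2 fold change was 0.97 (SE 0.45, 95% interval 0.10 to 1.85, edgeR exact test FDR 0.425), and without SZC replicate 1 it was 0.39. The estimates for the 2 genes that supply pyrophosphate thus had opposite signs, *ENPP1* with higher values in DZCs and *ANKH* with higher values in SZCs, and neither passed the FDR threshold. On the TMM scale the zones did not overlap for 3 of the 7 tested genes (*ENPP1*, *ANKH* and *MGP*), where they did not overlap for 41.5% of all tested genes. Scaled by library totals, *ENPP1* and *MGP* overlapped and *SLC20A1* did not.

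*SLC20A1* (ENSBTAG00000007895) encodes PiT-1, a sodium-dependent importer of phosphate. It was at 128 and 72.2 CPM in SZC replicates 1 and 2 and at 63.3 and 74.9 CPM in DZC replicates 1 and 2. Only SZC replicate 1 stood above the rest, and SZC replicate 2 lay between the DZC libraries. The log2 fold change was 0.53 (SE 0.42, 95% interval -0.28 to 1.35, edgeR exact test FDR 0.873), and 0.06 without SZC replicate 1.

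**Figure D2:**
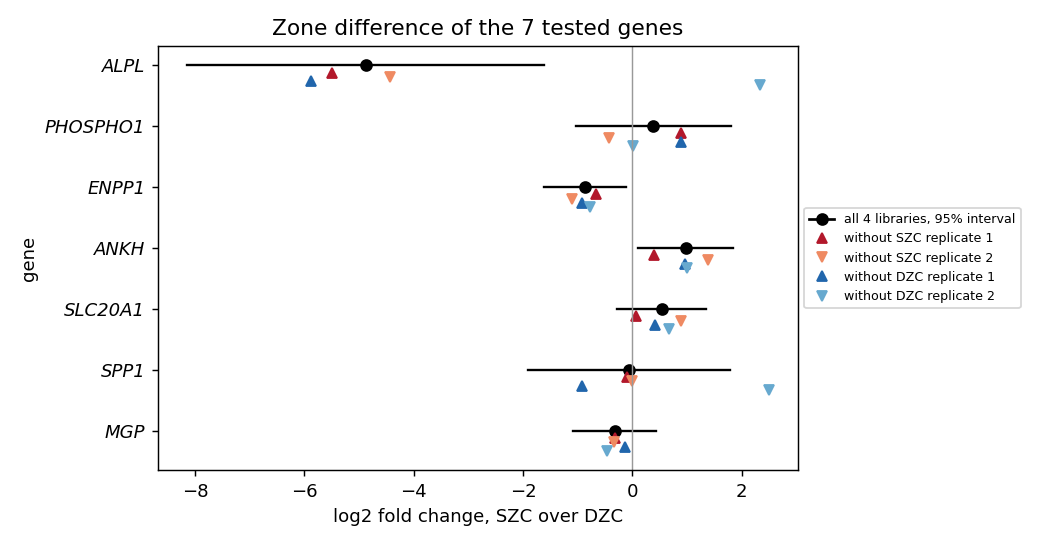
Log2 fold changes of SZCs over DZCs for the 7 tested genes (black points, with 95% intervals from the negative binomial model) and the same values with each library left out (coloured triangles). Leaving out DZC replicate 2 moves *ALPL* from -4.88 to 2.33 and *SPP1* from -0.06 to 2.49, while *ENPP1* and *ANKH* stay on their own side of 0. The 2.33 of *ALPL* rests on 10 and 5 counts in SZCs against 1 count in DZC replicate 1.

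The transcripts of 1 gene that removes pyrophosphate and 1 that supplies it were also compared, as the log2 ratio of *ALPL* to *ENPP1* counts. Taken within each library, this ratio does not depend on scaling. It leaves out *ANKH*, and pyrophosphate itself was not measured. For SZC replicates 1 and 2 it was -9.03 and -10.5, and for DZC replicates 1 and 2 it was -12.4 and -4.82 (0.5 added to each count). The DZC libraries held both the lowest value, which rests on 1 count of *ALPL*, and the highest. The mean was -9.76 ± 1.04 in SZCs and -8.62 ± 5.38 in DZCs (SD, n = 2 each), and p was 1 in a two-sided exact permutation test, where 0.333 is the smallest p that 2 libraries against 2 allow.

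*SPP1* (ENSBTAG00000005260) encodes osteopontin, a secreted phosphoprotein that binds hydroxyapatite and slows crystal growth, and that is made by many cell types besides bone. There were 2385 and 2373 counts in SZCs, 304 in DZC replicate 1 and 4477 in DZC replicate 2. The levels were 108, 102, 18.9 and 201 CPM in that order. The SZC duplicates were nearly equal, and the DZC libraries lay on either side of them. DZC replicate 2 was 10.6-fold above DZC replicate 1 (95% exact counting interval 9.45 to 12.0), so the zone means, 105 ± 4.32 CPM in SZCs and 110 ± 129 CPM in DZCs (SD, n = 2 each), say little of either DZC library. The log2 fold change was -0.06 (SE 0.94, 95% interval -1.91 to 1.78), and the FDR was 1 (edgeR exact test). Its sign depended on the scaling, and was positive (0.029) for libraries scaled by their totals alone.

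*IBSP* (ENSBTAG00000000470) encodes bone sialoprotein, which is made where mineral is first laid down and can start crystal growth. It had 1 and 2 counts in SZC replicates 1 and 2, 0 counts in DZC replicate 1 and 268 counts in DZC replicate 2. Only DZC replicate 2, at 12.0 CPM, was above the level of 3 counts, and it was at least 64.4-fold higher there than in DZC replicate 1, taking 3 counts for the latter. Without a filter on low counts, the FDR of *IBSP* between the zones was 0.227 by edgeR's exact test. *DMP1* (ENSBTAG00000019132), which encodes a SIBLING protein typical of osteocytes, had 2 and 0 counts in SZCs and 0 and 1 counts in DZCs, so that it was not detectable at this depth in any library.

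In RefSeq (assembly ARS-UCD2.0) *SPP1*, *IBSP* and *DMP1* lie on the same chromosome. *SPP1* and *IBSP* are parted only by *MEPE*, and *DMP1* neighbours *DSPP*, which encodes dentin sialophosphoprotein. *MEPE* and *DSPP*, the remaining SIBLING genes, had 0 counts in all 4 libraries. Of the 5 SIBLING genes, then, *SPP1* was the only one with a substantial level in both zones.

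**Figure D3:**
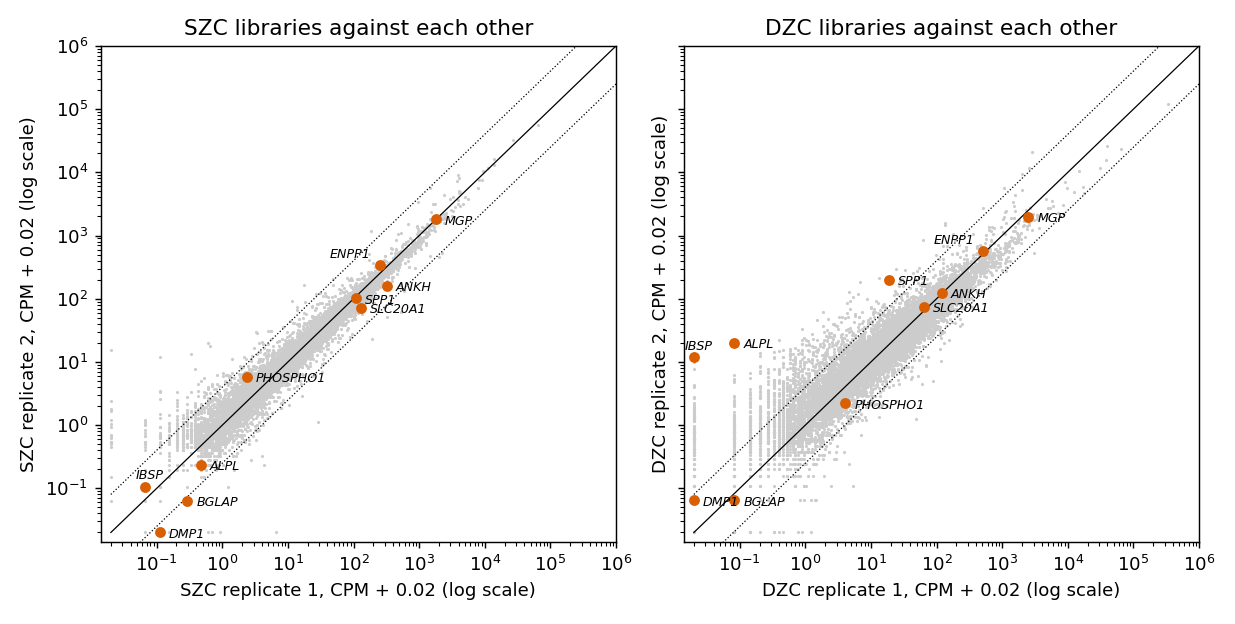
Level of every tested gene (grey, CPM + 0.02, log scale) in replicate 2 against replicate 1 of the same zone, with the 10 mineralization genes in orange. The solid line marks equal levels and the dotted lines a 4-fold difference. *ALPL*, *IBSP* and *SPP1* lie above the upper dotted line for DZCs, and for SZCs no mineralization gene with 20 or more counts lies outside the dotted lines.

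Among genes that differed by more than 4-fold between duplicates, more were higher in replicate 2 than in replicate 1 in both zones. Of the 932 genes that differed by more than 4-fold between them, 813 were higher in DZC replicate 2 and 119 in DZC replicate 1, and of the 204 such genes between the SZC libraries 162 were higher in SZC replicate 2 and 42 in SZC replicate 1. Leaving out DZC replicate 1 gave 2 of the 7 mineralization genes tested in all libraries an FDR under 0.05 with higher values in DZCs, against 2.71% of all genes. These were *ALPL* (log2 fold change -5.88, FDR 1.44e-23) and *SPP1* (-0.93, FDR 0.0379), both by edgeR's exact test. *IBSP* entered that fit only through its counts in DZC replicate 2, so its call there restates the filter and is not counted. The share of all genes was taken over the whole of that fit without such an exclusion. It and the count of mineralization genes therefore rest on unlike sets of genes. Leaving out DZC replicate 2 instead gave 1 of 7, *SPP1*, at 2.49 in the other direction (edgeR exact test FDR 1.18e-11), where 12.2% of all genes passed with higher values in SZCs. In each of these fits a single DZC library stood for the zone and was assumed to vary as the SZC libraries do, so the FDR values describe that library and not DZCs at large.

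*MGP* (ENSBTAG00000012370) encodes matrix Gla protein, a strong inhibitor of calcification of cartilage and arteries. SZCs held 39125 and 41980 counts of it, and DZCs 40288 and 44242. The TMM-normalized levels were 1778 and 1809 CPM in SZC replicates 1 and 2 and 2506 and 1983 CPM in DZC replicates 1 and 2. Both DZC libraries were above both SZC libraries on that scale. The log2 fold change was -0.32 (SE 0.39, 95% interval -1.09 to 0.44, edgeR exact test FDR 0.988). It was 0.012 when libraries were scaled by their totals, on which scale the levels were 1964 and 2055 CPM in SZCs and 1840 and 2146 CPM in DZCs and the zones overlapped.

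*BGLAP* (ENSBTAG00000009433) encodes osteocalcin, the Gla protein of osteoblasts. Its counts were 6 and 1 in SZC replicates 1 and 2 and 1 in each DZC library, so that it exceeded 3 counts only in SZC replicate 1. DZC replicate 2, which held *ALPL* and *IBSP*, thus had neither *BGLAP* nor *DMP1* above the limit of detection. The log2 ratio of *SPP1* to *MGP* counts was -4.04 and -4.14 in the SZC libraries, -7.05 in DZC replicate 1 and -3.30 in DZC replicate 2 (0.5 added to each count). The SZC values fell between the DZC values, with a mean of -4.09 ± 0.08 against -5.18 ± 2.65 (SD, n = 2 each, p = 1, two-sided exact permutation).

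Hypertrophic chondrocyte markers were examined beside *ALPL* and *IBSP*, since both genes are known from hypertrophic cells of the growth plate. All 8 were found, and 6 of them were higher in DZC replicate 2 than in DZC replicate 1, the exceptions being *IHH* and *MEF2C*. The share over all genes was not counted. Of the 932 genes over 4-fold apart between these libraries, 813 were higher in DZC replicate 2. *MEF2C* was at 7.04 and 10.0 CPM in SZCs and at 11.4 and 8.79 CPM in DZCs. *PANX3* had 13 counts in DZC replicate 2 and at most 1 count elsewhere. *MMP13*, a collagenase of hypertrophic cartilage, had 468 counts in DZC replicate 2 and 0 counts in each other library, at least 112-fold higher than in DZC replicate 1. *COL10A1*, the collagen that defines hypertrophic cells, was at 1.04 and 0.776 CPM in SZCs, at 0 counts in DZC replicate 1 and at 9.91 CPM in DZC replicate 2. *SP7*, which encodes osterix, had 2 and 8 counts in SZCs, 1 count in DZC replicate 1 and 140 counts in DZC replicate 2.

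*RUNX2*, a regulator of hypertrophy and of bone formation, was at 1.59 and 3.66 CPM in SZCs and at 7.46 and 17.2 CPM in DZCs, so that both DZC libraries lay above both SZC libraries (log2 fold change -2.23, SE 0.68, edgeR exact test FDR 0.0608). It passed the threshold in DESeq2 (FDR 0.0262) and not in the quasi-likelihood test of edgeR (FDR 0.361). *IHH*, which encodes the hedgehog ligand of prehypertrophic cells, was the 1 gene of the list that passed in edgeR's exact test, at a log2 fold change of -4.12 (SE 1.01), with FDR values of 0.0160 (edgeR exact test), 0.00146 (DESeq2) and 0.321 (edgeR quasi-likelihood test). It was higher in DZC replicate 1, at 12.1 CPM, than in DZC replicate 2, at 2.15 CPM, the reverse of *ALPL*. Of the 8 markers 5 were tested, with a median log2 fold change of -2.23. Among all genes tested, 2.93% passed in edgeR's exact test. The summed level of the 8 markers was 234 and 157 CPM in SZCs and 147 and 199 CPM in DZCs, most of it from *VEGFA*, which is not restricted to hypertrophic cells. *VEGFA* ran the other way between the zones, at 224 and 142 CPM in SZCs and 116 and 134 CPM in DZCs (log2 fold change 0.55). In bulk RNA, fewer cells of a type and less RNA per cell cannot be told apart, and the part of hypertrophic cells in the levels of *ALPL* and *IBSP* was not tested.

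**Figure D4:**
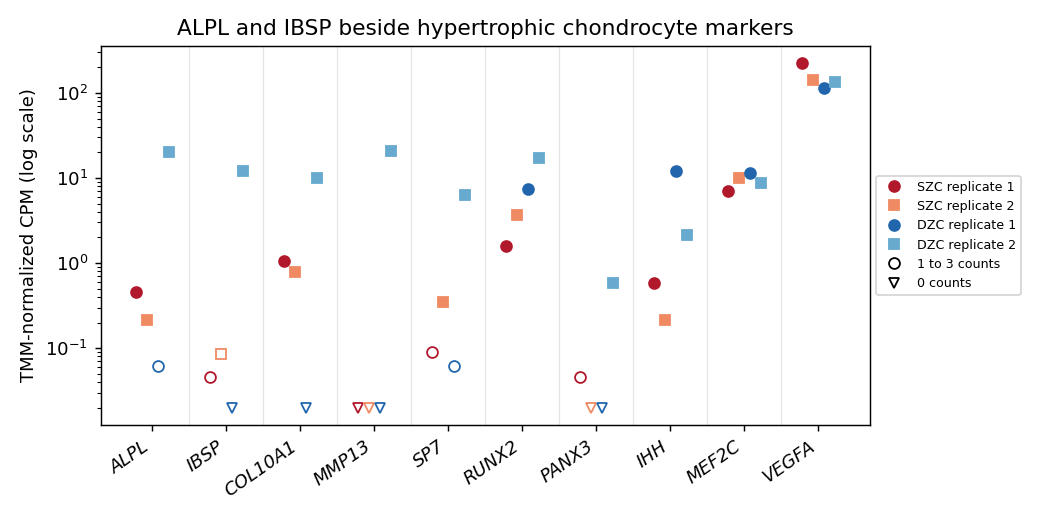
TMM-normalized CPM (log scale) of *ALPL*, *IBSP* and the 8 hypertrophic chondrocyte markers in each library, with open symbols for 1 to 3 counts and triangles for 0 counts. *COL10A1*, *MMP13* and *SP7* are highest in DZC replicate 2, at 9.91, 21.0 and 6.28 CPM, while *IHH* is highest in DZC replicate 1.

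Markers of other cells that calcified cartilage and bone marrow could bring were in part detected. For osteoclasts, *CALCR* had 0 counts in every library and *DCSTAMP*, *OCSTAMP* and *ATP6V0D2* at most 3, whereas *CTSK* and *MMP9*, which chondrocytes and other cells also express, made up nearly all of the summed level of 471 and 485 CPM in SZCs and 303 and 361 CPM in DZCs. Both had higher values in SZCs, with log2 fold changes of 0.40 for *CTSK* and 0.96 for *MMP9*. *ACP5*, which encodes tartrate-resistant acid phosphatase, was at 1.18 and 1.25 CPM in SZCs and 3.11 and 3.77 CPM in DZCs. Its values thus ran the other way and were highest in DZC replicate 2 (edgeR exact test FDR 0.279). Of 6 blood and immune markers, *HBB* had 0 counts throughout and *CD3E* and *CD79A* at most 3, while *CD68* had 33 to 156 and *CSF1R* 5 to 84. The summed level of the blood and immune markers was 2.43 CPM in DZC replicate 1, 5.60 CPM in DZC replicate 2 and 5.09 and 11.2 CPM in SZCs. The 5 endothelial markers summed to 3.86 and 7.80 CPM in the DZC libraries and to 5.32 and 10.6 CPM in the SZC libraries. *VWF*, at 49 to 100 counts, had higher values in DZCs (log2 fold change -0.52) and was highest in DZC replicate 2. *KDR* (2.88), *PECAM1* (1.27) and *TEK* (0.38) were higher on average in SZCs, and *CDH5* had too few counts for a test. None of the 3 osteoclast, 2 blood and immune and 4 endothelial markers with enough counts for a test was called by edgeR's exact test. That test called 2.93% of all genes. The blood and immune sum and the endothelial sum were higher in DZC replicate 2 than in DZC replicate 1, as *ALPL*, *IBSP* and *SPP1* were, but they were highest in SZC replicate 2, where *ALPL* and *IBSP* were near 0. Their part in these levels was not tested.

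The genes most like *ALPL*, *IBSP* and *SPP1* were sought among 9944 other named genes with at least 100 counts in a library, by the root mean square difference of centred log2(CPM + 1) over the 4 libraries. Closest to *ALPL* were *MMP13* (0.23), *IBSP* (0.24), *ANKRD1* (0.40), *WNT2B* (0.55) and *COL10A1* (0.60). Closest to *IBSP* were *ALPL* (0.24), *ANKRD1* (0.29), *WNT2B* (0.33), *MMP13* (0.36) and *FAT2* (0.37). All of these were highest in DZC replicate 2, and *ANKRD1*, for example, had 0 and 9 counts in SZCs, 9 in DZC replicate 1 and 434 in DZC replicate 2.

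*SPP1* had other neighbours. The 5 genes closest to it were *UBE2C* (0.05), *MYBL2* (0.09), *CCNA2* (0.11), *BUB1* (0.12) and *CCNB1* (0.13), which all act in cell division. *UBE2C* had 417 and 453 counts in SZCs, 45 in DZC replicate 1 and 866 in DZC replicate 2. These genes, like *SPP1*, were set apart by a low DZC replicate 1, at a level below both SZC libraries, whereas *ALPL* and *IBSP* were low in SZCs as well. The likeness rests on 4 libraries and is given as a description without a test.

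**Figure D5:**
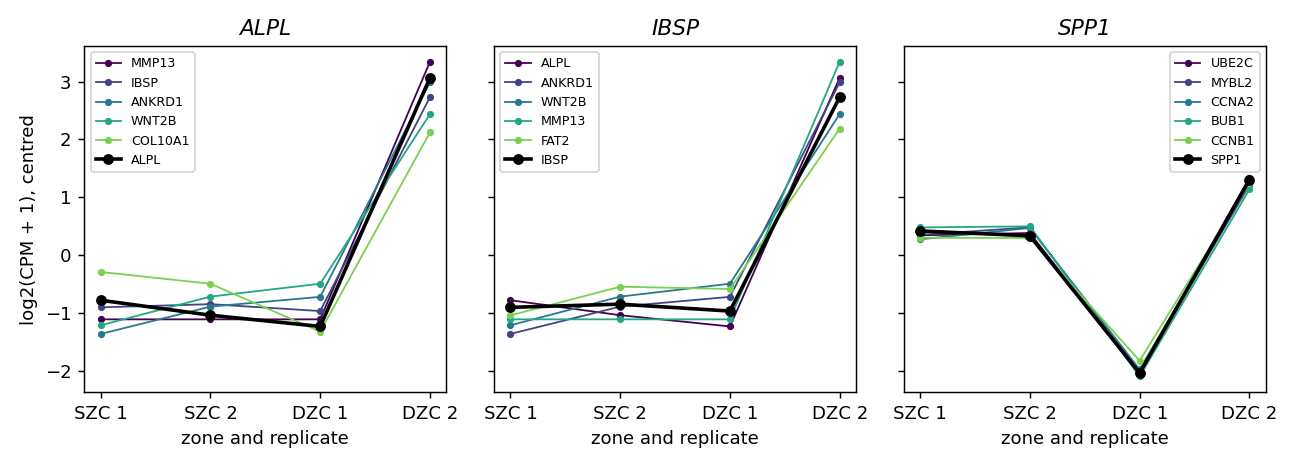
Centred log2(CPM + 1) of *ALPL*, *IBSP* and *SPP1* (black) and of the 5 genes most like each (coloured) over the 4 libraries. *ALPL* and *IBSP* and their neighbours peak in DZC replicate 2 alone, and *SPP1* and its neighbours dip in DZC replicate 1.

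Other genes of phosphate and pyrophosphate handling were taken from a list of 8, of which 7 were found in the table and 5 were tested. None was called by edgeR's exact test, which called 2.93% of all genes tested, so a count of 0 in a short list says little. Their median log2 fold change was -0.11, against -0.04 for all genes. *SMPD3*, which encodes the sphingomyelinase that feeds phosphocholine to *PHOSPHO1*, was at 9.81 and 4.70 CPM in SZCs, 86.7 CPM in DZC replicate 1 and 4.93 CPM in DZC replicate 2. It was therefore high in the DZC library in which *ALPL* was all but absent (log2 fold change -2.66, SE 1.11, edgeR exact test FDR 0.409). *SLC20A2*, which encodes the phosphate importer PiT-2, was at 10.4 and 9.61 CPM in SZCs and 6.10 and 5.74 CPM in DZCs, with no overlap (log2 fold change 0.75, FDR 0.748 by the exact test of edgeR). *ABCC6*, a transporter whose loss lowers plasma pyrophosphate, had 1 count in all.

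Of 6 annexins and calcium genes, 6 were tested and none passed in edgeR's exact test, with a median log2 fold change of 0.10. Among all genes tested, 2.93% passed. *ANXA5*, a calcium-binding protein abundant in matrix vesicles, was at 550 and 553 CPM in SZCs and 959 and 1346 CPM in DZCs, with a log2 fold change of -1.06 (SE 0.39). Its FDR was 0.160 in edgeR's exact test and 0.04996 in DESeq2.

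Of 7 bone matrix genes and SIBLING partners, 5 were tested and none passed in edgeR's exact test, with a median log2 fold change of 0.27. Among all genes tested, 2.93% passed. *COL1A1*, of the collagen that carries bone mineral, was at 3956 and 9205 CPM in SZCs, 1080 CPM in DZC replicate 1 and 5721 CPM in DZC replicate 2, so that it too was lowest in DZC replicate 1. *FAM20C*, which encodes the kinase that phosphorylates SIBLING proteins, was at 144 and 133 CPM in SZCs and 142 and 87.1 CPM in DZCs.

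Of 8 further inhibitors and genes of gamma carboxylation, 6 were found and tested. *AHSG* alone passed in edgeR's exact test, with higher values in DZCs, where 2.93% of all genes tested passed. The median log2 fold change of the 6 genes was 0.26. *AHSG* encodes fetuin-A, a calcium phosphate-binding protein of serum made mainly by the liver. It was at 1.00 and 0.776 CPM in SZCs and 3.05 and 5.38 CPM in DZCs, or -2.24 as log2 fold change (SE 0.67). Its FDR was 0.0433 in the exact test of edgeR, 0.0532 in DESeq2 and 0.302 in the quasi-likelihood test of edgeR. *GGCX*, which encodes the carboxylase that makes Gla residues in *MGP* and *BGLAP*, was at 122 and 120 CPM in SZCs and 82.7 and 94.3 CPM in DZCs (log2 fold change 0.45, edgeR exact test FDR 0.861).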

How the data were processed

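RNA from 2 SZC and 2 DZC cultures was made into SMART-Seq v4 libraries and read as single 75-base ends. Per the study's methods, the authors aligned reads with STAR 2.5.2b to the cow genome (Ensembl UMD 3.1), counted them per gene without strand, and deposited raw counts. Without strand, a gene and one overlapping it on the other strand cannot be told apart. A further deposited table holds the authors' log2 fold changes and FDR values, which were not used; it filled 8 gene names left blank in the counts. No sequence or genome of this build was used here, and the ATAC-Seq samples were not analysed here.

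Counts were fitted with edgeR 4.0.16 in R 4.3.3 across all genes with TMM, the exact test, Benjamini–Hochberg adjustment and an FDR threshold of 0.05, as in the study's methods, after edgeR's default filter on low counts, which was chosen here. Standard errors come from the gene-wise dispersion, and intervals are at 95%. Alternatives were the quasi-likelihood test with and without a replicate block, DESeq2 1.42.0, other filters, scalings and dispersions, and each library left out. Scripts were tested on simulated data. The members and lists were chosen with earlier results of these data known. Named are all members, list genes that passed or describe the cells, and the 5 genes most like *ALPL*, *IBSP* and *SPP1*. List genes that did not pass and are not cell markers were named for their role after their values were seen. *NT5E*, *UCMA* and *SOST* of the lists were not analysed here.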

Additional observations from a re-analysis of the deposited data

How the results depend on the processing

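Genes with an FDR under 0.05 numbered 377 in edgeR's exact test and 0 in its quasi-likelihood test, and so 0 higher in SZCs and 0 higher in DZCs, with 1126 at an unadjusted p-value under 0.05. The cause was not tested. Scaling by library totals gave 44 genes called higher in DZCs, where TMM gave 90, and 86.7% of calls were higher in SZCs, against 76.1%, while the median log2 fold change of all genes moved from -0.04 to 0.26. Leaving out each library gave 58 to 2725 genes, 52 to 1607 higher in SZCs and 6 to 1118 higher in DZCs, the lowest without SZC replicate 1 and the highest without DZC replicate 2. Of the mineralization genes, 0 to 3 were then called, 0 to 1 higher in SZCs and 0 to 3 higher in DZCs, the 3 including *IBSP*, which was tested there only through DZC replicate 2.

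With the replicate number as a block, 347 genes and 0 mineralization genes were called, *RUNX2* was called (FDR 0.0231) and *AHSG* was not (FDR 0.0901, edgeR quasi-likelihood test). Same-numbered libraries deviated from their zone means with a correlation of 0.42 across genes, but nothing in the labels pairs them.

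*SPP1* changed sign with the replicate block (0.75) and library totals (0.029), and ranged from -0.93 to 2.49 with each library left out. *MGP* changed sign with library totals (0.012). With each library left out, *ALPL* ranged from -5.88 to 2.33, *PHOSPHO1* from -0.43 to 0.89, the log2 ratio difference of *ALPL* to *ENPP1* from -4.94 to 2.66, and that of *SPP1* to *MGP* from -0.79 to 2.96. *ANKH*, *ENPP1* and *SLC20A1* kept their sign, and stayed above an FDR of 0.05, in all 12 alternatives each. *ALPL* had FDR values of 0.0501 to 0.585 over the 7 alternatives with all libraries; a filter asking for over 1 CPM in 2 libraries leaves it out. At this number of libraries the 1.96-fold difference of *ANKH* was not called.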

Other observations

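The chondrocyte markers ran against *ALPL* and *SPP1* within the deep zone. Of 8 markers, 7 were lower in DZC replicate 2 than in DZC replicate 1, with *COL2A1* at 118900 against 333200 CPM, *ACAN*, which encodes aggrecan, at 23330 against 64600 CPM, and *SOX9*, a regulator of the chondrocyte fate, at 55.0 against 142 CPM. The exception was *MATN3*, an adaptor protein of the cartilage matrix, at 334 against 186 CPM. It was also the 1 marker of the list called between the zones in edgeR's exact test, while DESeq2 also called *COL2A1* (FDR 0.0100) and *COL11A1* (FDR 0.0494). The difference of *MATN3* was -2.04 on the log2 scale (SE 0.46) with an edgeR exact test FDR of 0.00212. That test called 2.93% of all genes.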
